A study of Mus musculus with 2 samples.

Results

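TET2 peaks were examined at the genes of the C/EBP family in adipocytes. The 7 genes were listed by name and found in the GENCODE M21 annotation of the mouse genome GRCm38, which holds 21951 protein-coding genes. They are Cebpa, Cebpb, Cebpd, Cebpe, Cebpg, Cebpz and Ddit3. No measured value entered the choice, but it was made with earlier results of these data known. Stem cells from mouse inguinal white adipose tissue, expanded with β-FGF, were induced with IBMX, dexamethasone and insulin, kept in insulin and taken as adipocytes. DNA bound by TET2 was collected from them with an antibody and sequenced (ChIP-seq). From such cells 1 library of TET2-bound DNA and 1 of input chromatin were made, and neither a second condition nor a replicate was included. The deposited list gives a position and a −log10 p from the peak caller for every TET2 peak. No replicate error or read depth is therefore known for any peak, and a gene with no peak in the list is one where no interval passed the caller. Fat cell markers cannot be checked in a list of peaks.

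CCAAT/enhancer-binding proteins are basic leucine zipper (bZIP) transcription factors that bind DNA as dimers. In fat cell differentiation C/EBPβ and C/EBPδ are induced early by the hormonal cocktail, and they then switch on C/EBPα and PPARγ, which maintain the adipocyte. TET2 oxidizes 5-methylcytosine to 5-hydroxymethylcytosine, mostly at CpG dinucleotides, and has no sequence-specific DNA-binding domain of its own. The study asked how TET2 and C/EBPα act together at the leptin promoter. Here the question was whether the genes that encode the family carry TET2 peaks themselves.

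Of the 7 genes, 3 had a TET2 peak with its midpoint within 1 kb of a transcription start site (TSS). These were Cebpd, Cebpe and Cebpg, and in each the same single peak also lay in the gene. Cebpa, Cebpb, Cebpz and Ddit3 had no peak at any TSS and none that shared a base with the gene. Over all protein-coding genes, 24.6% had a promoter peak by the same rule (5391 of 21951), and 34.2% shared at least 1 base with a peak. The second share rises with gene length, and it was 22.6% for genes of at most 20000 bp, which all 7 members are. With 1 library there is no test of these counts. Among members the 1 kb limit was not close, since the midpoint at Cebpe lay 456 bp from its TSS and the next, at Ddit3, 9075 bp.

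The promoter peaks are shown by their sequence, because they are the TET2 intervals at the family's own promoters. At Cebpd and Cebpe these are 200 bases around the peak midpoint, which lie in coding sequence. At Cebpg these are the 200 bases before the TSS, all inside the peak. Each is written 5′ to 3′ on the strand of the gene, with every CpG dinucleotide in capitals. The intervals on GRCm38 are chr16:15887524-15887723 (plus strand) for Cebpd, chr14:54711619-54711818 (minus strand) for Cebpe and chr7:35056574-35056773 (minus strand) for Cebpg.

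Cebpd: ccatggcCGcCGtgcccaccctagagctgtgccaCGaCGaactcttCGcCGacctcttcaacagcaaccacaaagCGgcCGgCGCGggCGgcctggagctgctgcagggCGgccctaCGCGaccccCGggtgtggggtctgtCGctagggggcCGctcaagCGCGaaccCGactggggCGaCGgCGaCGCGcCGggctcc
Cebpe: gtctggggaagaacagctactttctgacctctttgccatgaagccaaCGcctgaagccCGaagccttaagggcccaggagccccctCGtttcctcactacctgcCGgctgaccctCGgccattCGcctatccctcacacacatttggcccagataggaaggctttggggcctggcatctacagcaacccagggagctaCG
Cebpg: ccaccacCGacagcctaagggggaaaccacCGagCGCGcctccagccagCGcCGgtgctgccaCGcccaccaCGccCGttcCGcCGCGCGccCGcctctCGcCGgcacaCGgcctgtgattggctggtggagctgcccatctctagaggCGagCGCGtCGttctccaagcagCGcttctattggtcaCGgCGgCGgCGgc

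The stretch at Cebpd holds 26 CpG dinucleotides in 200 bases and that at Cebpg also holds 26, whereas the stretch at Cebpe holds 7. The ratio of observed to expected CpG, which is the CpG count times the length divided by the product of the C and G counts, was 0.98, 1.04 and 0.41 in the same order. RefSeq's promoter table for GRCm38 matched 4 of the 7 genes, namely Cebpa, Cebpb, Cebpg and Ddit3, and had no entry for Cebpd, Cebpe and Cebpz.

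Cebpd (ENSMUSG00000071637) encodes C/EBPδ, an early activator of adipogenesis that glucocorticoids such as dexamethasone induce. The gene is on the plus strand of chromosome 16 from 15887286 to 15891031. Its peak runs from 15887388 to 15887859, which is 102 to 573 bp downstream of the TSS, with the midpoint at 337 bp. All 472 bp of the peak are coding sequence, since the protein is encoded in a single exon that begins shortly after the TSS. Of the 5824 peaks of the list within 1 kb of a TSS, 233 lay wholly in coding sequence, a share with an exact 95% binomial interval of 3.51% to 4.54%. The −log10 p of the Cebpd peak was 9.66, and 10.7% of the 14103 peaks of the list had a larger value. Among promoter peaks it ranked 785 of 5824. It was the strongest of the 3 promoter peaks of the family.

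The peak at Cebpd holds 55 CpG dinucleotides, or 11.7 per 100 bp, where promoter peaks had a median of 8.22. No other peak lay within 100 kb of the Cebpd TSS. The nearest one upstream was 249162 bp from the gene, at the TSSs of Prkdc and Mcm4, which encode a DNA repair kinase and a subunit of the replicative helicase. The nearest one downstream was 103326 bp away in an intron of Spidr, a gene of homologous recombination.

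Cebpg (ENSMUSG00000056216) encodes C/EBPγ, a short bZIP protein without an activation domain that acts through the partners it pairs with. It is on the minus strand of chromosome 7 from 35046422 to 35056573. The peak, from 35056251 to 35056790, spans the TSS from -217 to 322 bp with its midpoint at 53 bp. It covers 217 bp upstream, the whole non-coding first exon (198 bp) and 125 bp of the following intron. The TSS of the antisense transcript Gm45095 is also within 1 kb of the midpoint, so the peak cannot be given to one of the 2 transcripts. This was the most CpG-dense of the 3 peaks, with 80 CpG dinucleotides (14.8 per 100 bp). Its CpG ratio of 1.04 was above that of 96.6% of promoter peaks. Its −log10 p was 5.78, below the list median of 6.21, and 64.1% of all peaks had a larger value. The nearest other peak upstream was 100040 bp from the gene, and the nearest downstream was 133502 bp away, at the TSS of Pepd.

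Cebpe (ENSMUSG00000052435) encodes C/EBPε, a factor of late granulocyte development that is not part of the known adipogenic cascade. It is on the minus strand of chromosome 14 from 54710360 to 54712174. The peak, from 54711404 to 54712032, lies 142 to 770 bp downstream of the TSS, with the midpoint at 456 bp. It covers the entire coding part of the first exon (510 bp, 81.1% of the peak), 74 bp of 5′ untranslated sequence and 45 bp of intron. Its CpG ratio of 0.45 was above that of only 12.7% of promoter peaks. The −log10 p was 5.96, and 62.0% of the list had a larger value. The strongest peak within 100 kb of the TSS was away from the gene, 35922 bp upstream, in an intron of the amino acid transporter gene Slc7a8. Its −log10 p was 10.5, exceeded by 6.81% of the list. The nearest peak downstream was 23773 bp from the gene, at the TSSs of 1700123O20Rik and Acin1, with a −log10 p of 5.13.

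All 3 midpoints lay downstream of the TSS. The share of all promoter peaks whose midpoint was at least as far downstream of the nearest TSS was 56.5% at the offset of Cebpg, 17.7% at that of Cebpd and 10.8% at that of Cebpe. A window of 200 bp thus keeps Cebpg alone, and one of 500 bp keeps all 3.

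**Figure D1:**
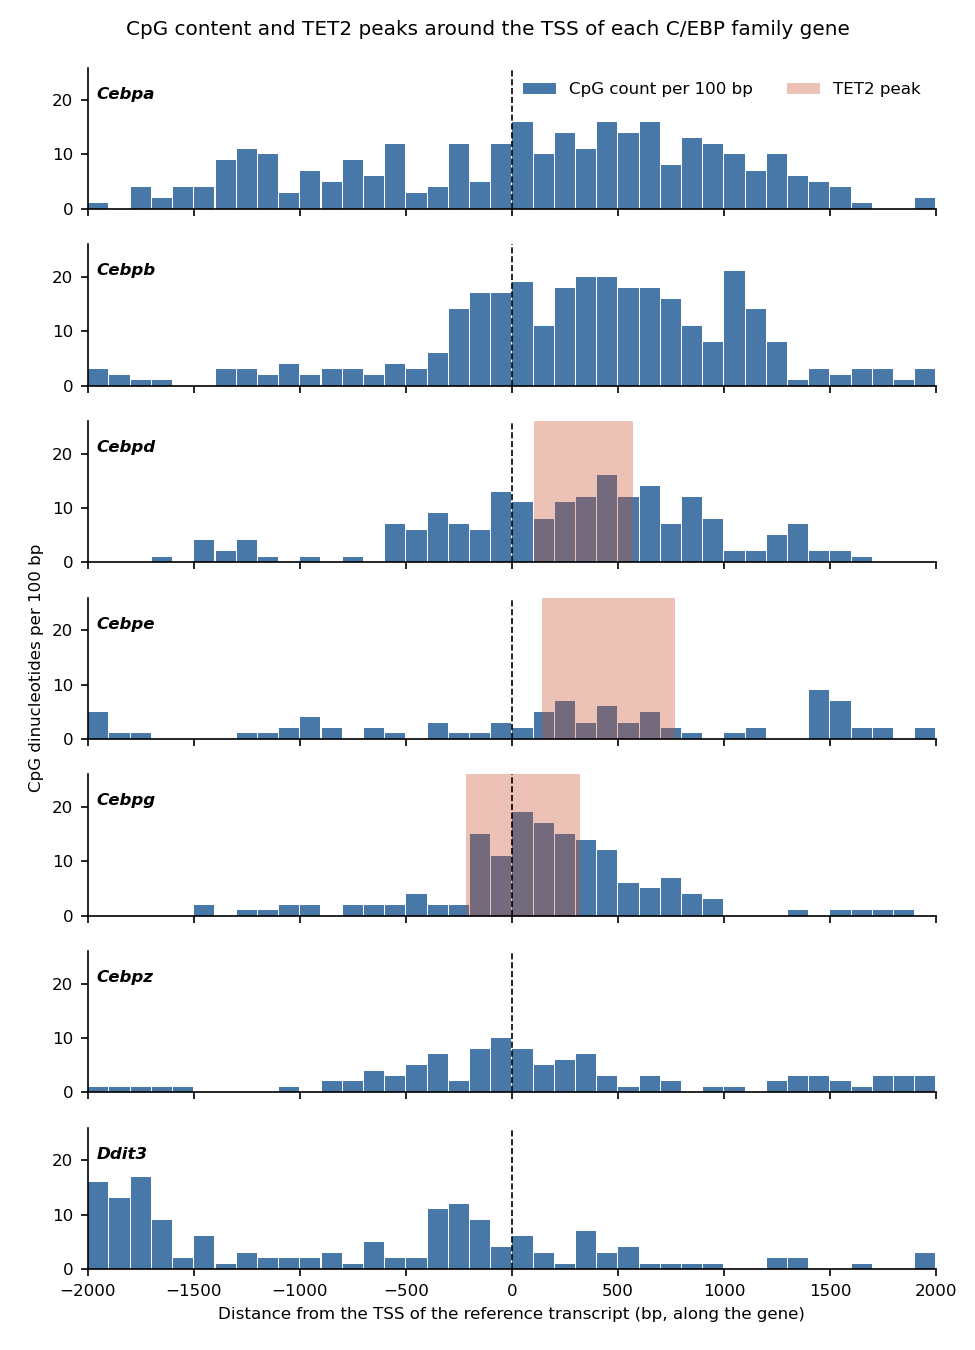
Number of CpG dinucleotides per 100 bp (bars) from 2 kb upstream to 2 kb downstream of the TSS of the reference transcript of each gene (dashed line), with TET2 peaks shaded over their length. The peaks at Cebpd (102 to 573 bp), Cebpe (142 to 770 bp) and Cebpg (-217 to 322 bp) are the 3 in these windows, and the dense CpG blocks of Cebpa and Cebpb carry none.

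Cebpb (ENSMUSG00000056501) encodes C/EBPβ, the early factor that agents raising cyclic AMP, such as IBMX, induce. It lies on the plus strand of chromosome 2 from 167688915 to 167690418. Its promoter was the richest in CpG of the 7 genes, with 145 CpG dinucleotides in 500 bp either side of the TSS, more than in 99.5% of protein-coding genes, and a ratio of 1.01. No peak lay there. The nearest one was 12910 bp downstream of the TSS, from 167701638 to 167702012, in an intron of the noncoding RNA gene A530013C23Rik. Its −log10 p was 5.19, and 60.5% of its bases are repeat-masked. Over the peak, 53.1% of bases equalled the base 8 positions further on, and 4.79% of the list reached this share at any spacing of 5 to 60 bases. The nearest peak upstream was at the TSS of the ubiquitin-conjugating enzyme gene Ube2v1, 56987 bp from Cebpb. In all, 7 peaks lay within 100 kb of the Cebpb TSS, against a median of 2 for protein-coding genes, and 1 of the 7 was within 1 kb of a TSS.

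Cebpa (ENSMUSG00000034957) encodes C/EBPα, the factor the study examined with TET2 at the leptin gene. It is on the plus strand of chromosome 7 from 35119293 to 35121928, and Cebpg is its upstream neighbour. There were 103 CpG dinucleotides in 500 bp either side of the TSS (ratio 0.88), more than in 93.1% of protein-coding genes. The 62719 bp between Cebpa and Cebpg held no peak midpoint, and at the mean density of chromosome 7 a stretch of this length would hold 0.40. The nearest peak to the Cebpa TSS was 37566 bp downstream, from 35156614 to 35157124, with a −log10 p of 5.54, and 67.2% of the list had a larger value. No annotated gene spans its midpoint, and the nearest TSS, that of Gm35665, is 15420 bp away. The peak is CpG-poor, with 10 CpG dinucleotides in 511 bp (ratio 0.22) and no repeat-masked base. An enhancer that lies downstream of Cebpa is known from blood cell precursors. The annotation used here marks no element in this region, and whether the peak covers it was not tested. A stronger peak followed 66023 bp downstream of the TSS, with a −log10 p of 9.39, also away from any TSS.

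The CpG-rich promoters without a peak and the CpG-poor peak downstream of Cebpa are set side by side in the same notation. The promoter sequences are the 200 bases before the TSS from the RefSeq table, at chr7:35119103-35119302 for Cebpa and chr2:167688715-167688914 for Cebpb (both plus strand). The third is the centre of the downstream peak, chr7:35156770-35156969, on the strand of Cebpa.

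Cebpa promoter: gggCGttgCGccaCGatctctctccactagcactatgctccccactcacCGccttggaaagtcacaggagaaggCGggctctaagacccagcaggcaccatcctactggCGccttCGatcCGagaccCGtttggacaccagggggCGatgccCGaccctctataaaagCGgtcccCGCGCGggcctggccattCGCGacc
Cebpb promoter: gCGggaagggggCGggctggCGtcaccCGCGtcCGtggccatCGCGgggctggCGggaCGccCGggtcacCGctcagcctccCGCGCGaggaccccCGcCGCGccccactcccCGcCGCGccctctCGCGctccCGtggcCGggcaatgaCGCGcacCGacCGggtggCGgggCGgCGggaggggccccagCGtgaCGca
Cebpa downstream peak: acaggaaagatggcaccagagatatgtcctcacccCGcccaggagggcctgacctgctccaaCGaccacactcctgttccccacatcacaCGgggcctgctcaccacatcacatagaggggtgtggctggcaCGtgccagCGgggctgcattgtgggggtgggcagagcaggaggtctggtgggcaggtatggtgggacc

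These stretches hold 17, 34 and 5 CpG dinucleotides in turn. The Cebpb stretch, with no peak, thus has more of them than the stretches shown above from the peaks at Cebpd and Cebpg (26 each).

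Ddit3 (ENSMUSG00000025408) encodes CHOP, a stress-induced member that pairs with other C/EBP proteins and keeps them from their usual sites. It is on the plus strand of chromosome 10 from 127290774 to 127296288, and a second, shorter annotated gene of the same name lies inside it. Its promoter had 58 CpG dinucleotides in 500 bp either side of the TSS and a ratio of 0.63. The nearest peak lay 3358 bp past the end of the gene, from 127299647 to 127300091, in an intron of Mars, which encodes methionyl-tRNA synthetase. Its −log10 p was 9.02, exceeded by 14.4% of the list. The 200 bases at its centre, chr10:127299770-127299969 on the plus strand, are shown because they form a tandem repeat with a long unit. Within them, 87.9% of bases that could be compared equalled the base 26 positions further on. Over the whole peak this share was 52.7%, and 4.94% of the list reached it, so that over the whole peak it was close to that of the nearest peak of Cebpb. The part of such repeats in the values of these peaks was not tested.

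Ddit3 downstream peak: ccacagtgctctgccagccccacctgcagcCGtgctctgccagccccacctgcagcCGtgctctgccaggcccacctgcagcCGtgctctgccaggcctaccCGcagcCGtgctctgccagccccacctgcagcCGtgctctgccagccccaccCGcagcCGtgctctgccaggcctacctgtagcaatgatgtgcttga

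On the other side, the nearest peak to Ddit3 was at the TSS of the kinesin gene Kif5a, 27537 bp upstream. Within 100 kb of the Ddit3 TSS there were 8 peaks, the highest number of the 7 genes, and 98.5% of protein-coding genes had fewer. Of these 8 peaks, 4 were at TSSs of other genes.

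Cebpz (ENSMUSG00000024081) carries the family's name for its binding to the CCAAT sequence, but it has no bZIP domain and is known for a role in ribosome assembly. It is on the minus strand of chromosome 17 from 78919006 to 78937066. Its promoter had 61 CpG dinucleotides in 500 bp either side of the TSS and a ratio of 0.78. The single peak within 100 kb was 24811 bp upstream of the TSS, in an intron of the protein kinase gene Prkd3. It had the lowest −log10 p of the nearest peaks, 5.00, and 82.6% of the list had a larger value. The nearest peak downstream was at the paired TSSs of Heatr5b and Gpatch11, 83621 bp from the gene.

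**Figure D2:**
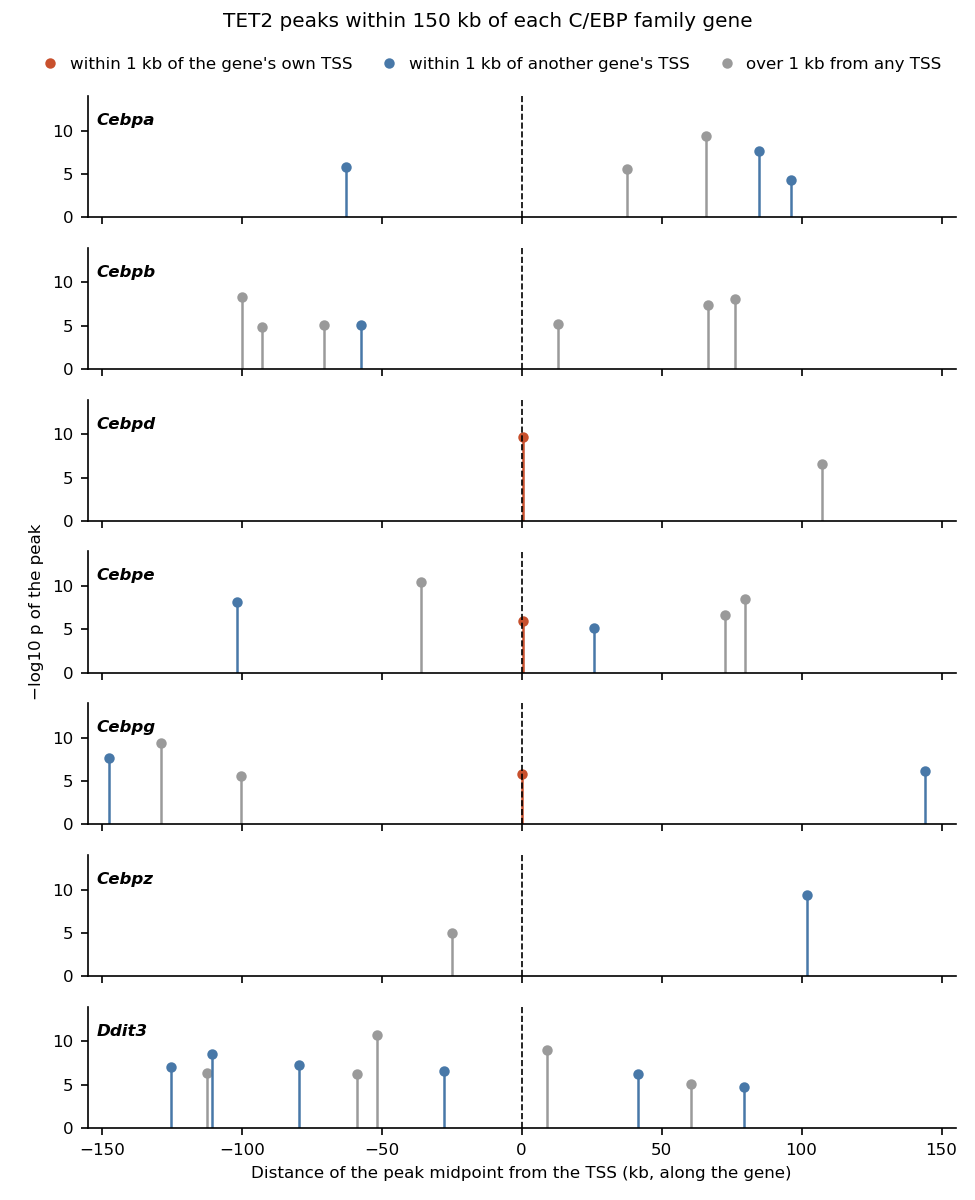
Peaks within 150 kb of the TSS of each gene, by the distance of the midpoint along the gene (kb) and the −log10 p of the peak (red, at the gene's own TSS, blue, within 1 kb of another gene's TSS, grey, away from any TSS). Cebpb and Ddit3 have 7 and 8 peaks within 100 kb but none at their TSS, whereas the peaks at Cebpd and Cebpg are the only ones within 100 kb of those genes.

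Ordered by the distance from a TSS to the nearest peak midpoint, the genes were Cebpg (53 bp), Cebpd (337 bp), Cebpe (456 bp), Ddit3 (9075 bp), Cebpb (12910 bp), Cebpz (24811 bp) and Cebpa (37566 bp). The median distance over protein-coding genes was 22880 bp, so Cebpz and Cebpa were farther from one than the median gene. The gene of C/EBPα thus had the most distant nearest peak of the family. Its distance was not extreme among protein-coding genes, of which 59.9% had a nearer peak, and their upper quartile was 74943 bp.

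Promoter CpG content was then set against all protein-coding genes, since the share with a peak rises with it. Genes were divided into 10 equal groups (deciles) by the CpG ratio in 500 bp either side of the reference TSS. Of the lowest decile 2.37% and of the highest 44.3% had a promoter peak (exact 95% binomial intervals 1.77% to 3.10% and 42.2% to 46.4%). A promoter peak was counted at any TSS, so in a gene with several TSSs it can lie at another one than the CpG ratio describes. Cebpb and Cebpg were in the highest decile, and Cebpa and Cebpd in the next, where the share was 44.2%. Cebpz was in decile 8 (40.6%), Ddit3 in decile 6 (29.6%) and Cebpe in decile 4 (12.4%). The mean of these shares over the 7 genes was 37.1%, which corresponds to 2.60 genes, beside the 3 found. A count of 3 in 7 is thus near the share of genes with like CpG content. Within the same decile Cebpd had a peak and Cebpa had none, and likewise Cebpg and Cebpb. The member with the lowest ratio, Cebpe (0.37), had a peak, and the member with the highest, Cebpb, had none.

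**Figure D3:**
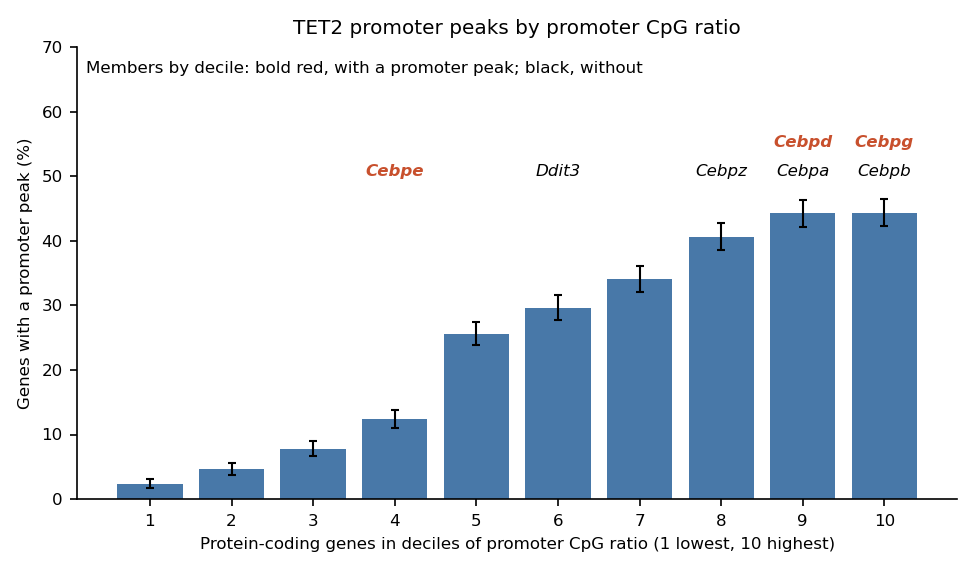
Share of protein-coding genes with a TET2 promoter peak (bars, %, with exact 95% binomial intervals) in deciles of promoter CpG ratio, with the 7 genes named over their decile. The share rises from 2.37% to 44.3%, and both of the highest deciles hold 1 member with a peak and 1 without.

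Short motifs were searched on both strands in 500 bp either side of the TSS. A match is an exact string of letters and not a bound site, and near matches were not counted for any motif. The C/EBP motif TTNNGCAA matched in Cebpd at -468 to -461 and in Ddit3 at -292 to -285, and in no other member. Of all protein-coding promoters, 29.2% held a match. None of the 7 windows held the palindrome TTGCGCAA, which 0.442% of promoters had. None of the 3 promoter peaks held TTNNGCAA anywhere, and so none held it within 100 bp of its midpoint, where 2.73% of promoter peaks did. The share of promoter peaks with a match anywhere in the peak would be larger and is not given here. The motif TTGCATCA, the composite of C/EBP and ATF sites, matched in Ddit3 at -282 to -275 and in Cebpg at 373 to 380, against 2.42% of promoters. It does not overlap the other match in Ddit3. In Cebpg it lies downstream of the peak, which ends at 322.

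The SP1 motif GGGCGG matched in all 7 windows, and in 61.7% of promoters. The peak at Cebpd held 2 matches (starting at 323 and 344 bp, beside its midpoint), that at Cebpe 3 and that at Cebpg 3, of which 2 overlap. Cebpb, with no peak, had the most of the 7 windows, 7 matches. The CCAAT box matched at -82 and -21 in Cebpg, both inside the peak, and also in Cebpb, Cebpe and Ddit3, against 70.1% of promoters. The E-box CACGTG matched in Cebpa and Cebpz (17.0% of promoters) and TATAAA in Cebpa, Cebpb and Ddit3 (31.4%). The TATAAA match of Cebpa, at -40 to -35, is in the promoter sequence shown above. Neither the cyclic AMP response element TGACGTCA, held by 3.37% of promoters, nor the ER stress element (CCAAT and CCACG with 9 bases between, 0.169%) matched in any of the 7 windows.

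Genes that act with the family were taken as 5 lists, 40 genes in all, and 13 of them (32.5%) had a promoter peak, beside the 24.6% of all protein-coding genes and a mean share of 32.7% over the deciles of CpG ratio of the same genes. Among 10 genes that C/EBP proteins activate in fat cells, 2 had one (20%, beside 19.6% over their deciles). They were Lep, the gene of leptin, with a −log10 p of 11.2, and Insr, the insulin receptor, with 5.13. Adipoq, Fabp4, Slc2a4, Pparg, Scd1, Agpat2, Lpl and Cd36 had none, and their nearest peaks were 10768 to 104830 bp from a TSS, the farthest being that of Pparg. The Lep peak was larger than every peak within 100 kb of the 7 genes, of which the largest, at -51646 bp from the Ddit3 TSS, had 10.8.

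Of 8 inducers of C/EBP genes in adipogenesis, Stat5a (4.15) and Srebf1 (5.13) had a promoter peak, and Creb1, Nr3c1, Egr2, Klf4, Klf5 and Stat5b had none. This is a share of 25%, beside a mean share of 36.1% over the deciles of these genes. The Stat5a value is below the −log10 p of 5 that the study's supplement gives as the caller's setting. Nr3c1 is the glucocorticoid receptor through which dexamethasone acts, and its nearest peak was 254268 bp away. Of 11 bZIP partners, Atf2 (8.52), Atf3 (9.20) and Jund (5.02) had one, and Atf4, Atf5, Jun, Junb, Fos, Fosl2, Batf and Nfil3 had none. Here the share was 27.3%, beside 35.5% over their deciles. Atf3, a partner of CHOP, had a CpG ratio of 0.25 around its reference TSS. Its peak was counted at any TSS, and whether it lies at the reference one was not examined.

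Of 6 genes whose products modify or degrade C/EBP proteins, 3 had a promoter peak: Trib1 (−log10 p 6.12) and Trib2 (6.70), pseudokinases that direct C/EBPα to degradation, and the ubiquitin ligase subunit Fbxw7 (4.15). The Fbxw7 value, like that of Stat5a, is below 5. Trib3, Cop1 and Gsk3b had none. Of 5 genes of nucleolar ribosome assembly, to which Cebpz belongs by function, Noc3l (6.21), Noc4l (11.7) and Nop14 (5.59) had one and Noc2l and Emg1 had none. The shares in these lists were 50% and 60%, beside 38.7% and 39.9% over their deciles. All 5 lists are short, and nothing is read from their counts.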

How the data were processed

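Per the labels, bcl2fastq, Bowtie and MACS2 2.1.0 were used, with Bowtie as the aligner and MACS2 as the peak caller. By the study's supplement the p-value option corresponded to a −log10 p of 5, whereas 2182 peaks of the list have a smaller value. The cause of this difference was not tested, and how the input entered the calling is not given in the sources used here. The authors deposited 1 list of 14103 peaks, with chromosome, start, end, name and the −log10 p that MACS2 computed for each. Submitters' processing notes name mm10 (GRCm38) and the methods GRCm39. Positions are given on GRCm38 and none was converted. Starts and ends were read as 1-based. The supplement gives the sequencing output as a single amount of data. Numbers of reads per library or per peak were not found in the sources used here, so no precision could be set from depth, and intervals cover counting error only.

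From the list, peaks were placed by their midpoints against all TSSs of GENCODE M21. The reference transcript was the APPRIS principal one, then CCDS, then the longest. CpG content came from the RefSeq GRCm38 sequence. No test between groups was possible. Members and lists were chosen with earlier results of these data known. The named genes were the 7 members, genes with a TSS at their peaks, most of those with the TSS nearest to a flanking peak, and list genes with a promoter peak. List genes without one and the genes that span a flanking peak were named in addition, after their values were seen. One gene of the lists is not reported here and enters none of their counts. Alternatives covered thresholds, windows, TSS sets, repeats and motifs. The tandem measure was added after seeing the data. Steps were checked on simulated data. Python 3.11.15, numpy 2.4.6, scipy 1.17.1, pysam 0.24.0, samtools 1.23.1 and matplotlib 3.10.9 were used.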

Additional observations from a re-analysis of the deposited data

How the results depend on the processing

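No paired analysis was possible because TET2 was measured in 1 library, so that nothing could be tested between groups. Under the alternatives 60 values were recomputed, of which 45 stayed the same (a share within its 95% interval of 24.0% to 25.1%, any other value within 1.5 times) and 15 moved. Cebpd, Cebpe and Cebpg were the 3 members with a promoter peak under 8 of the 10 alternatives. With −log10 p of at least 10, 0 members had a peak at the promoter or in the gene, and 2.71% of protein-coding genes had a promoter peak. Within 200 bp of a TSS, 1 member (Cebpg) and 14.2% of genes had one. The share of genes was 22.1% with −log10 p of at least 5, 21.6% within 500 bp, 26.9% within 2 kb, 28.5% within 3 kb, 25.3% from any base of the peak, 23.1% for TSSs of protein-coding transcripts and 20.8% for the reference TSS. Fewer peaks or TSSs, or a narrower window, lower it by construction. The C/EBP motif was found in 0 members as the palindrome and in 0 within 250 bp before to 50 bp after the TSS, beside 2 in the wider window. All 21 distances stayed the same, as did 13 of 14 CpG ratios, with that of Cebpe at 0.23 in the narrow window. The ratio of Ddit3 was 0.88 in the narrow window, 0.63 as reported and 0.51 within 1 kb, all within the 1.5 times. It was above that of 81.7% of genes in the narrow window, beside 55.5% as reported and 52.8% within 1 kb. Deciles were set in the reported window only, so the decile of Ddit3 depends on that choice. The number of reads behind a peak is unknown here, which limits any statement on a single peak.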
